A study of Homo sapiens with 5 samples.

Results

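The prostate-restricted genes FOLH1, SLC45A3, TRPM8 and PCA3 were examined for 2 histone marks in VCaP cells. VCaP is an established human prostate cancer line that grows in response to androgen. All peaks lying within 50 kb of these gene spans in build hg19 were taken, which gave 304 intervals out of 363159 on the autosomes and chromosome X. They comprised 53 and 82 intervals of acetylated histone H3 lysine 27 (H3K27ac, antibody ab4729) in replicates 1 and 2, and 90 and 79 of monomethylated lysine 4 (H3K4me1, antibody ab8895). Both groups came from the same line in serum-containing medium, and the labels name no treatment. A single input library is not analysed here. The labels do not say that replicates were separate cultures, so the p-values measure only the spread between these libraries, which may be technical. The lists hold positions only, with no peak height, and sequencing depth is unknown. A stretch without an interval is therefore one in which no peak was listed, not one shown to lack the mark. Covered length, the number of base pairs under the intervals of a library, served as the measure. Expression was not measured, and the label of the cell line was not checked against other genes.

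H3K27ac is deposited at active promoters and active enhancers, and H3K4me1 at enhancers and on the flanks of active promoters, where the start itself usually carries trimethylated lysine 4 in its place. FOLH1 encodes prostate-specific membrane antigen, a surface carboxypeptidase used as a target for imaging and radioligand therapy. SLC45A3, or prostein, is a membrane transporter of prostate epithelium and a known partner of ETS genes in gene fusions. TRPM8 is an ion channel opened by cold and menthol, and its transcription in prostate cells responds to androgen. PCA3 is a long noncoding RNA that is measured in urine as a marker of prostate cancer. It is transcribed from the strand opposite to PRUNE2 and inside that gene, so a peak near PCA3 may belong to either.

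The promoters are shown because the marks at the starts of these genes differed. Of the 4 genes, 3 matched the RefSeq promoter table (build GRCh38.p14), which holds 250 bases before and 50 bases after each start. It lists 6 starts for TRPM8, 2 for PCA3 and 1 for SLC45A3, and only the outermost was used. The table is in another build than the peaks, so the sequences are not placed inside any interval. Capitals mark the letters TATAAA, the TATA box, and GGGCGG, the GC box bound by SP1-like factors, on either strand.
SLC45A3 (chr1:205680460-205680759, minus strand): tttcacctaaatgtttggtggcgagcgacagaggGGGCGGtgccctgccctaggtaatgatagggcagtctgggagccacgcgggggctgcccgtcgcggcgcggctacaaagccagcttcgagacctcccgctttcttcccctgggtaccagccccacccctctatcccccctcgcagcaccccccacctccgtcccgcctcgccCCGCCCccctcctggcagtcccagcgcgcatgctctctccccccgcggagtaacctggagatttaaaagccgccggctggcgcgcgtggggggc
TRPM8 (chr2:233917123-233917422, plus strand): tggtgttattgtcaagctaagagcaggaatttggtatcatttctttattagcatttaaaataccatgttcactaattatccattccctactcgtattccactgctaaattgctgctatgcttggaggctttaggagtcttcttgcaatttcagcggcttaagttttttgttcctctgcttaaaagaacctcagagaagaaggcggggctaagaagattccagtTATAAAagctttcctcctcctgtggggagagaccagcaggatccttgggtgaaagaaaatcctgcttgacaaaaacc
PCA3 (chr9:76764186-76764485, plus strand): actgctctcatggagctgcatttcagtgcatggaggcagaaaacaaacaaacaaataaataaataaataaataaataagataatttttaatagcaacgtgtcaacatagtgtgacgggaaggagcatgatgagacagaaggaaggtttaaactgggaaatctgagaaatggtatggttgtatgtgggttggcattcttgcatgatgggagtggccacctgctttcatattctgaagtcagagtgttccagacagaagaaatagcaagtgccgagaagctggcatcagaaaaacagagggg

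The SLC45A3 promoter was rich in CpG, with 26 such dinucleotides and 69.0% G and C, while those of TRPM8 and PCA3 held 3 each and had 41.0 and 40.7% G and C. The median over 35116 promoters was 14 CpG and 58.7% G and C, and 75.5% of them held more CpG than TRPM8 and PCA3 did. SLC45A3 had 2 matches to the GC box, which 44.95% of all promoters hold. TRPM8 had a TATA box 27 bases before the start, a motif found in 11.5% of promoters. Neither motif occurred in the PCA3 window. None of the 3 promoters held, on either strand, TGTTTAC (forkhead), AGAACA (only part of the androgen receptor motif) or CCGGAA (ETS core). These letters occur in 3.42, 14.8 and 17.2% of promoters. The motifs searched share no overlapping match in these windows, and no match says only that these letters are missing there.

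The gene start was taken as the upstream end of each given span, and other annotated starts were not examined. At these starts, FOLH1 and SLC45A3 carried broad H3K27ac, TRPM8 a narrow interval, and PCA3 none. The FOLH1 start lay under an H3K27ac interval of 6083 bp in replicate 1 and of 4382 bp in replicate 2, wider than 99.1 and 98.4% of the intervals in those lists. Both reached about as far upstream, 601 and 557 bp, and extended 5481 and 3824 bp into the gene. At SLC45A3 the interval over the start measured 3017 bp in replicate 1 and 2655 bp in replicate 2. It began 547 and 575 bp upstream and ended 2469 and 2079 bp inside the gene. In both genes most of the acetylated stretch thus lay on the transcribed side of the start. At TRPM8 the nearest H3K27ac intervals began 17 and 27 bp after the start and were 230 and 290 bp wide, wider than only 1.52 and 20.8% of the respective lists. PCA3 had no H3K27ac interval within 2 kb of its start. The nearest were 588 and 511 bp wide and ended 2147 and 2124 bp upstream of it.

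H3K4me1 was absent from the lists at all 4 starts. Within 2 kb on either side, the FOLH1 and PCA3 starts had 0 bp of H3K4me1 in both replicates. The TRPM8 start had 0 bp in replicate 1 and 495 bp in replicate 2, and the SLC45A3 start had 0 and 529 bp. H3K27ac covered 2602 and 2558 bp of the same stretch at FOLH1, 2548 and 2576 bp at SLC45A3 and 230 and 290 bp at TRPM8. At FOLH1 the first H3K4me1 interval began 3523 bp inside the gene in replicate 1 and 3287 bp inside in replicate 2. At SLC45A3 replicate 1 had its first interval 3211 bp inside, and the first H3K4me1 region found in both replicates spanned 3.13 to 4.80 kb. Replicate 2 alone also had intervals of 314 and 310 bp nearer to the SLC45A3 start, on either side of it. FOLH1 and SLC45A3 therefore shared an order of marks, with acetylation over the start and replicated methylation beginning more than 3 kb downstream. This order was not particular to them. At TRPM8 the narrow H3K27ac intervals lay just after the start, and the first replicated H3K4me1 region inside the gene began at 4.43 kb. Replicate 2 alone had a nearer H3K4me1 interval there. These comparisons rest on positions in 2 libraries per mark and were not tested.

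**Figure D1:**
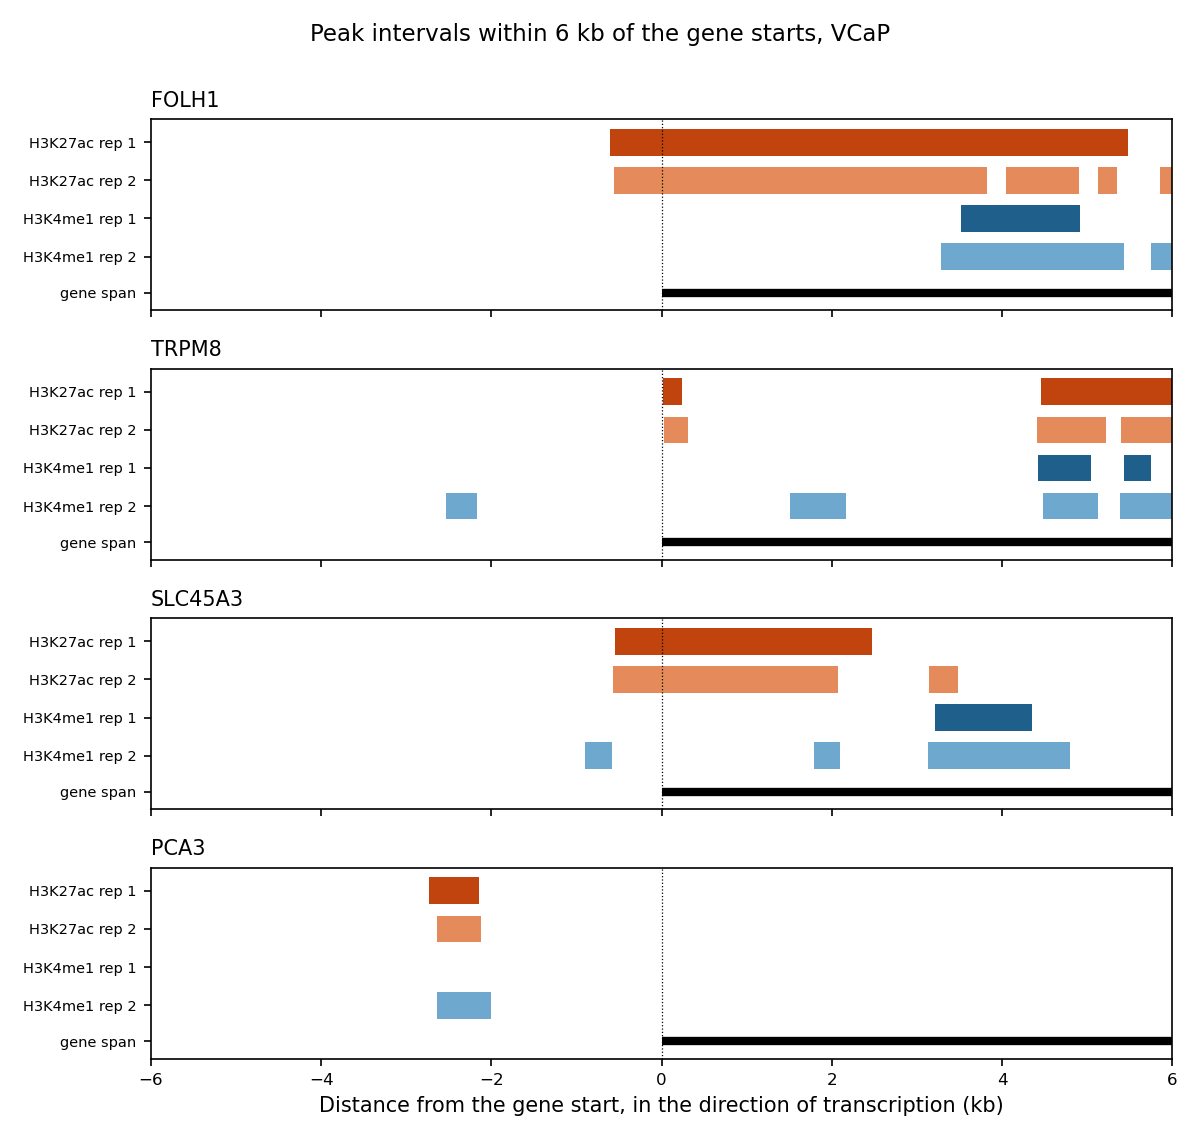
Peak intervals within 6 kb of the 4 gene starts. The horizontal axis is the distance from the start in kb, in the direction of transcription, each coloured row is a library (H3K27ac in orange, H3K4me1 in blue), and the black bar is the gene. H3K27ac lies over the start of FOLH1 and SLC45A3, as a narrow interval just after the start of TRPM8, and not at PCA3, where the nearest intervals end 2147 and 2124 bp upstream.

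To describe the rest of each locus, intervals of the 4 lists no more than 3 kb apart were joined into clusters, and overlapping peaks of both replicates of a mark were merged into replicated regions. This gave 28 clusters, 4 at FOLH1, 12 at TRPM8, 7 at SLC45A3 and 5 at PCA3. Intervals of all 4 libraries were present in 19 of them, 2, 8, 5 and 4 respectively, against 34.2% of all 85398 clusters joined the same way. Only H3K4me1, in both replicates, was present in 4 clusters (28.9% of all clusters), and only H3K27ac, in both replicates, in 1 (3.89%). Another 3 came from a single library, and the cluster upstream of PCA3 lacked H3K4me1 replicate 1 alone. The cluster shares were not adjusted for the density of intervals and were not tested.

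**Figure D2:**
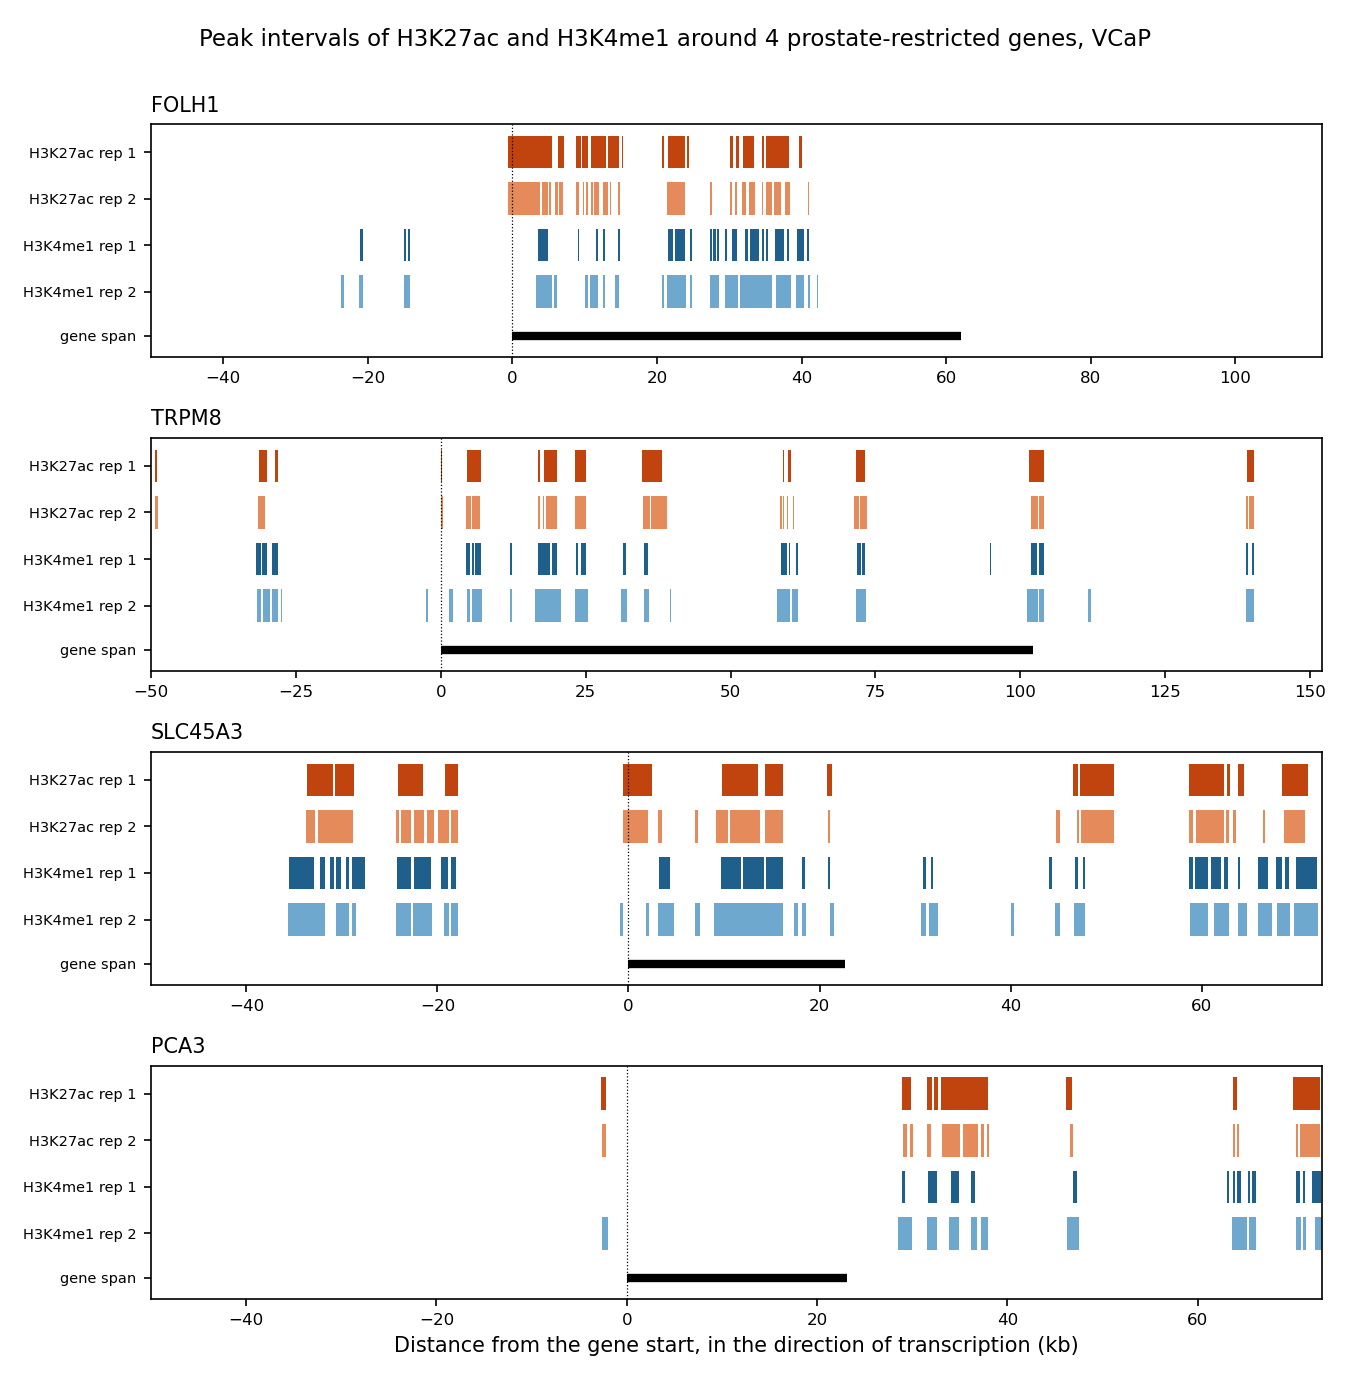
Intervals of the 4 libraries over each gene span and 50 kb on either side. The horizontal axis is the distance from the gene start in kb, in the direction of transcription, with H3K27ac in orange, H3K4me1 in blue and the gene as a black bar. Intervals lie along the first part of FOLH1, recur along TRPM8, lie within and around SLC45A3, and are missing over the whole PCA3 span.

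FOLH1 (chromosome 11, 49168187 to 49230222, minus strand) carried all intervals inside the gene in its first 42.3 kb, with none from there to its end. The last of them was an H3K4me1 interval of 233 bp in replicate 2 only. H3K27ac ended 40.0 and 41.0 kb inside the gene in replicates 1 and 2. H3K27ac covered 33.3 and 26.98% of the gene span in replicates 1 and 2, and H3K4me1 19.04 and 30.9%. The stretch past 42.3 kb, empty in all 4 lists, ran on to the end of the window and was 69.7 kb long. FOLH1 has a closely related copy elsewhere on chromosome 11, FOLH1B, and no label states how reads matching both were handled.

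The 2 clusters inside FOLH1 differed in their leading mark. The first ran from 0.601 kb upstream to 15.3 kb inside the gene. It held 12.1 and 9.69 kb of H3K27ac but 2.47 and 4.93 kb of H3K4me1, so that both H3K27ac libraries exceeded both H3K4me1 libraries. The second ran from 20.7 to 42.3 kb inside the gene, with 9.10 and 7.61 kb of H3K27ac and 9.34 and 14.3 kb of H3K4me1. There the order was turned, and again the covered lengths of the marks did not overlap between libraries, though narrowly (9.34 against 9.10 kb). Among all clusters joined in this way, both H3K27ac libraries were longer in 18.0% and both H3K4me1 libraries in 46.1%.

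The widest H3K27ac region of FOLH1 was the one over the start (49224741 to 49230823, 6083 bp), of which replicated H3K4me1 covered 35.4%, all of it at the end inside the gene. A further region 10.8 to 14.9 kb inside the gene (49215278 to 49219413, 4136 bp) was 49.5% covered. The 3 regions between them, 700 to 807 bp wide, had no replicated H3K4me1. In the second cluster the picture differed. A region 21.4 to 23.9 kb inside (2511 bp) was 99.7% covered and another at 35.0 to 38.4 kb (3407 bp) 86.6%. The widest H3K4me1 region, at 31.5 to 35.8 kb (49194374 to 49198704, 4331 bp), was a single interval in replicate 2 and several intervals adding up to 2315 bp in replicate 1. Upstream of FOLH1, H3K4me1 stood alone. It covered 0.464 and 0.938 kb at 14.1 to 15.03 kb upstream and 0.359 and 0.845 kb at 20.7 to 23.7 kb upstream, with no H3K27ac at either site.

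All 11 replicated H3K27ac regions of the FOLH1 window lay close enough to be joined into 1 domain (49191781 to 49230823), from 601 bp upstream to 38.4 kb inside the gene. It held 21.4 kb of H3K27ac, or 20.8 and 17.1 kb by replicate, and ranked 99 of 27436 domains by that length, with a median domain of 1.86 kb. The rank is a description and has no test.

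SLC45A3 (chromosome 1, 205626979 to 205649630, minus strand) had the densest marks of the 4 windows. H3K27ac covered 23.8 and 24.0% of its window and H3K4me1 22.2 and 28.3%. In the gene itself, H3K27ac covered 38.2 and 40.5% and H3K4me1 34.2 and 48.0%. The marks met in the middle of the gene, 8.90 to 16.2 kb from the start. A replicated H3K4me1 region of 7304 bp (205633424 to 205640727) lay there, wider than 99.9% of all replicated H3K4me1 regions. It was 1 interval in replicate 2 and 6018 bp in several intervals in replicate 1. Replicated H3K27ac covered 89.0% of it, in regions of 4549 and 1952 bp that were each 100% covered by H3K4me1. The region over the start (205647161 to 205650205, 3045 bp) had no replicated H3K4me1 at all. Acetylation at the start and in the middle of the gene was thus opposite in its H3K4me1.

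Upstream of SLC45A3, 2 clusters carried both marks in all libraries. The nearer, 17.9 to 24.3 kb before the start, held 4.07 and 4.78 kb of H3K27ac and 4.64 and 4.68 kb of H3K4me1. The farther, at 27.5 to 35.6 kb, held 4.65 and 4.59 kb of H3K27ac and 5.75 and 5.65 kb of H3K4me1. In both clusters the H3K4me1 replicates were nearly equal, unlike over the whole window. The farther one included the widest H3K27ac region of the window (205678390 to 205683438, 5049 bp), 73.3% of it under H3K4me1 but not at its middle. In the GRCh38.p14 gene table NUCKS1 is the next protein-coding gene on this side and ELK4, an ETS gene, on the other.

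On the ELK4 side, past the end of SLC45A3, a cluster 44.0 to 50.8 kb from the SLC45A3 start was mainly acetylated. H3K27ac covered 4.01 and 3.996 kb of it, and H3K4me1 0.846 and 1.74 kb. Its main H3K27ac region (205598838 to 205602385, 3548 bp) was 15.7% covered by H3K4me1. This proportion lay between those of the start regions of SLC45A3 and FOLH1. Farther out, from 58.6 to 73.05 kb, H3K27ac covered 7.73 and 6.53 kb and H3K4me1 7.82 and 10.1 kb. Between the gene and these clusters, at 30.7 to 32.4 kb, H3K4me1 alone covered 0.624 and 1.52 kb. The H3K27ac domain that touches the gene (205628368 to 205650205) held 10.02 kb, or 9.19 and 9.74 kb by replicate, and ranked 809. A larger domain past the end of the gene (205533233 to 205603092), which did not touch it and ran beyond the window, held 21.5 kb and ranked 95. No exon, intron or start of a neighbouring gene was assigned in hg19, so these intervals are placed by distance only.

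TRPM8 (chromosome 2, 234826043 to 234928166, plus strand) carried its acetylation in separate clusters along the gene, with the narrow interval described above at the start. H3K27ac covered 13.2 and 13.9% of the gene span and H3K4me1 10.7 and 17.9%. The widest H3K27ac region lay 34.8 to 39.1 kb inside the gene (234860795 to 234865152, 4358 bp), where the replicates had 3466 and 4060 bp. Only 21.5% of it was under replicated H3K4me1, none of it at the middle, and in its cluster H3K27ac covered 3.47 and 4.06 kb against 1.22 and 2.19 kb of H3K4me1. In 5 other regions over 2 kb, at 4.42 to 6.91, 17.9 to 20.1, 23.1 to 25.1, 71.3 to 73.5 and 101.5 to 104.2 kb, H3K4me1 covered 89.2, 100, 97.3, 78.5 and 87.3%. The last of these spans the end of the gene.

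The widest H3K4me1 region of TRPM8 lay at 16.2 to 20.7 kb (234842244 to 234846781, 4538 bp), with 4538 bp in replicate 2 and 2970 bp in replicate 1. Replicated H3K27ac covered 57.4% of it. H3K4me1 also led at 58.1 to 61.7 kb, with 1.45 and 3.26 kb against 0.807 and 0.809 kb of H3K27ac. A small cluster at 11.9 to 12.3 kb held H3K4me1 alone, 0.397 and 0.342 kb. Upstream, a cluster at 27.3 to 31.8 kb carried 1.98 and 1.29 kb of H3K27ac and 2.59 and 3.15 kb of H3K4me1. At the edge of the window, 48.7 to 49.3 kb upstream, H3K27ac alone covered 0.427 and 0.569 kb, the only cluster of the 28 with that pattern.

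Acetylation of TRPM8 fell into several domains. The largest (234826060 to 234865152) began at the start region and held 11.8 kb of H3K27ac, or 10.6 and 11.1 kb by replicate, and ranked 556. The other domains touching the gene held 3.09 kb (234885037 to 234899510, rank 7531) and 2.62 kb (234927585 to 234930207, rank 9321).

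PCA3 (chromosome 9, 79379352 to 79402465, plus strand) carried neither mark over its 23.1 kb in any of the 4 lists. The interval-free stretch around it was 30.5 kb long, from 2.00 kb before the start to 28.5 kb after it. Upstream stood the narrow H3K27ac region mentioned above (79376618 to 79377228, 611 bp), with an H3K4me1 interval in replicate 2 only. Before it, the remaining 47.3 kb of the window were free of intervals. Of all 100 kb tiles of the chromosomes, 75.7% held at least 1 interval. The tiles were not filtered for unassembled sequence or matched for gene content. This share therefore cannot tell whether the empty stretches at PCA3 are unusual.

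The marks near PCA3 lay past its end. A cluster 28.5 to 38.0 kb from the start carried 6.74 and 5.03 kb of H3K27ac and 2.68 and 4.86 kb of H3K4me1. Its main H3K27ac region (79412432 to 79417394, 4963 bp) was wider than 97.5% of replicated H3K27ac regions, with 4877 and 4008 bp by replicate. H3K4me1 covered 36.2% of it, in separate regions on either side of its middle. A second wide H3K27ac region, at 69.99 to 72.9 kb (2911 bp), was 62.5% covered and again free of H3K4me1 at its middle. The cluster at 63.1 to 66.2 kb was led by H3K4me1, with 1.54 and 2.31 kb against 0.400 and 0.378 kb of H3K27ac. The widest H3K4me1 region of the window (79442955 to 79444525, 1571 bp) lay in it. No H3K27ac domain touched the PCA3 span. In the GRCh38.p14 table PRUNE2 overlaps PCA3, and from positions alone these intervals cannot be assigned to either gene.

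In covered length the ranges of the marks overlapped at each of the 4 genes. A test of 2 against 2 libraries could not have told the marks apart. At FOLH1, H3K27ac covered 21.2 and 17.3 kb of the window and H3K4me1 12.6 and 21.0 kb. The means were 19.3 kb (SD 2.79, n = 2) and 16.8 kb (SD 5.90, n = 2), a difference of 2.46 kb in favour of H3K27ac. At SLC45A3, H3K27ac covered 29.2 and 29.4 kb and H3K4me1 27.3 and 34.8 kb, and H3K4me1 was longer by 1.68 kb on average. TRPM8 had 19.2 and 18.996 kb of H3K27ac and 15.98 and 25.3 kb of H3K4me1, with H3K4me1 longer by 1.52 kb. PCA3 had 11.2 and 8.62 kb of H3K27ac and 6.24 and 10.8 kb of H3K4me1, with H3K27ac longer by 1.42 kb.

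The H3K4me1 libraries straddled or overlapped the H3K27ac libraries in every window. The difference H3K4me1 minus H3K27ac over the pairs of libraries ran from -8.61 to 3.69 kb at FOLH1, -2.16 to 5.53 kb at SLC45A3, -3.25 to 6.28 kb at TRPM8 and -4.99 to 2.14 kb at PCA3. An exact two-sided permutation test gave p = 0.667 for FOLH1 and PCA3 and p = 1 for SLC45A3 and TRPM8, where 2 against 2 libraries allow no p below 0.333. In every window H3K4me1 replicate 2 covered more than replicate 1. Over all chromosomes the H3K4me1 lists also differed this way, with 112.1 Mb in replicate 2 and 72.4 Mb in replicate 1, and each list has its own minimum peak width. Without H3K4me1 replicate 1 the difference at FOLH1 was 1.72 kb and at PCA3 0.839 kb, and without replicate 2 it was -2.06 kb at SLC45A3 and -3.13 kb at TRPM8, all of opposite sign to the values above.

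**Figure D3:**
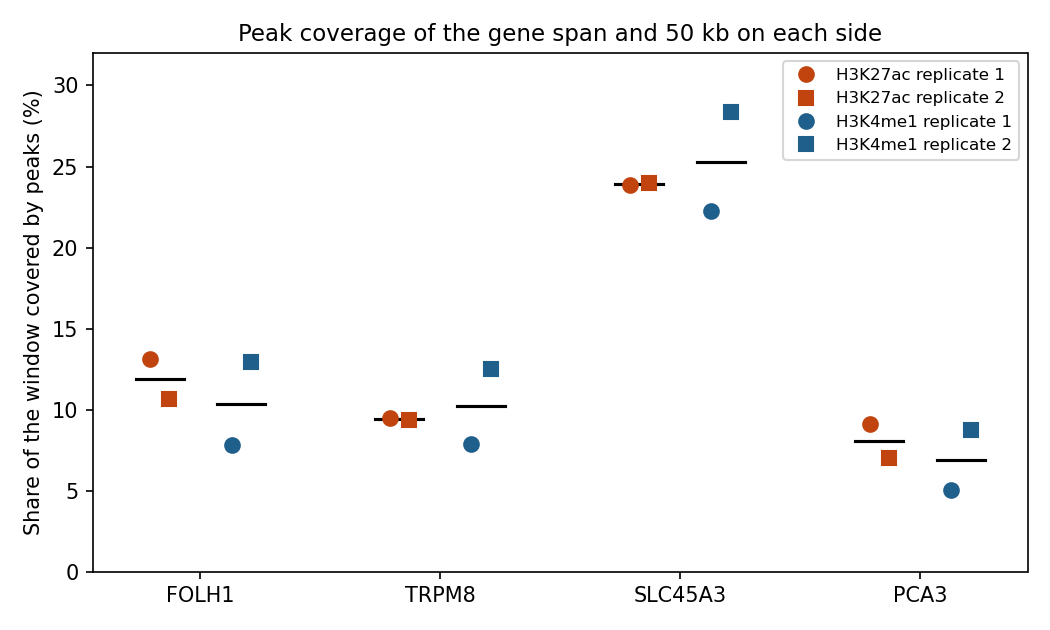
Share of each window (gene span and 50 kb on each side) under peaks, in percent, by library. Points are libraries (circle replicate 1, square replicate 2, H3K27ac orange, H3K4me1 blue) and black lines are means of 2 libraries. SLC45A3 lies at 22.2 to 28.3% in all 4 libraries, above the 5.07 to 13.1% of the other 3 genes, and the shares of the marks overlap at each gene.

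Between genes, SLC45A3 had the highest share of its window covered in each of the 4 libraries and PCA3 the lowest for H3K4me1 replicates 1 and 2 (5.07 and 8.74%) and H3K27ac replicates 1 and 2 (9.12 and 7.003%). FOLH1 and TRPM8 lay between them. For H3K27ac both FOLH1 libraries (13.1 and 10.7%) were above both TRPM8 libraries (9.51 and 9.40%), while for H3K4me1 their ranges overlapped (7.80 and 12.9% against 7.90 and 12.51%). The top place depended on the window. With 10 kb on each side, H3K27ac replicate 1 covered 25.9% at FOLH1 and 21.5% at SLC45A3, and the other 3 libraries kept SLC45A3 first. With 100 kb on each side, H3K27ac replicates 1 and 2 covered 8.72 and 6.83% at FOLH1 and 8.87 and 8.28% at TRPM8. The lowest TRPM8 library for H3K27ac, at 9.40%, was close to the highest of PCA3, at 9.12%. The genes were chosen with earlier results of these data known, and their order is a description. These shares are of windows, and intervals were not assigned to genes. In the SLC45A3 window, H3K27ac covered 29.2 and 29.4 kb, of which 8.64 and 9.17 kb lay in the gene. The remainder may belong to neighbouring genes.

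The windows were also set against equal lengths of genome. In the 100 kb centred on the start, mean H3K27ac length was 21.7 kb at SLC45A3, 19.3 kb at FOLH1, 13.0 kb at TRPM8 and 6.89 kb at PCA3, against a median of 0.536 kb over 30337 tiles of 100 kb. As much or more was found in 0.435, 0.682, 2.53 and 10.1% of tiles. Mean H3K4me1 length was 22.3, 16.8, 13.2 and 4.90 kb, against a tile median of 1.63 kb, and 0.419, 1.35, 3.01 and 22.2% of tiles reached those values. The start regions of expressed genes tend to carry these marks, and tiles were not matched for gene content or filtered for unassembled sequence.

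Where the marks lay, they often coincided. Replicated H3K4me1 covered 58.4% of the replicated H3K27ac length at FOLH1, 73.0% at TRPM8, 68.4% at SLC45A3 and 55.5% at PCA3, against 51.7% over all chromosomes. In the other direction, H3K27ac covered 63.1, 64.4, 62.0 and 62.2% of the H3K4me1 length, against 38.8% over all chromosomes. By library, H3K4me1 replicate 1 covered 39.1 and 43.4% of H3K27ac replicates 1 and 2 at FOLH1. At PCA3 it covered 37.7 and 41.8%, against 41.8 and 42.4% over all chromosomes. FOLH1 and PCA3 thus did not clearly exceed the series in this library, while TRPM8 (62.4 and 57.5%) and SLC45A3 (56.6 and 58.8%) did. With H3K4me1 replicate 2 each gene was above the series, which had 52.9 and 52.5%. The values were 59.1 and 63.3% at FOLH1, 62.6 and 64.5% at PCA3, 77.0 and 73.2% at TRPM8 and 68.1 and 68.0% at SLC45A3. The contrast between genes thus depended on the library. Counted by region, 36 of 44 replicated H3K27ac regions near the genes touched replicated H3K4me1 (73.5% of all such regions did), and 43 of 60 H3K4me1 regions touched H3K27ac (47.1% of all). Of the 8 H3K27ac regions that touched none, 3 were at FOLH1, 2 at TRPM8, 2 at SLC45A3 and 1 at PCA3, and they included the start regions of TRPM8 and SLC45A3. None of these shares was tested.

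**Figure D4:**
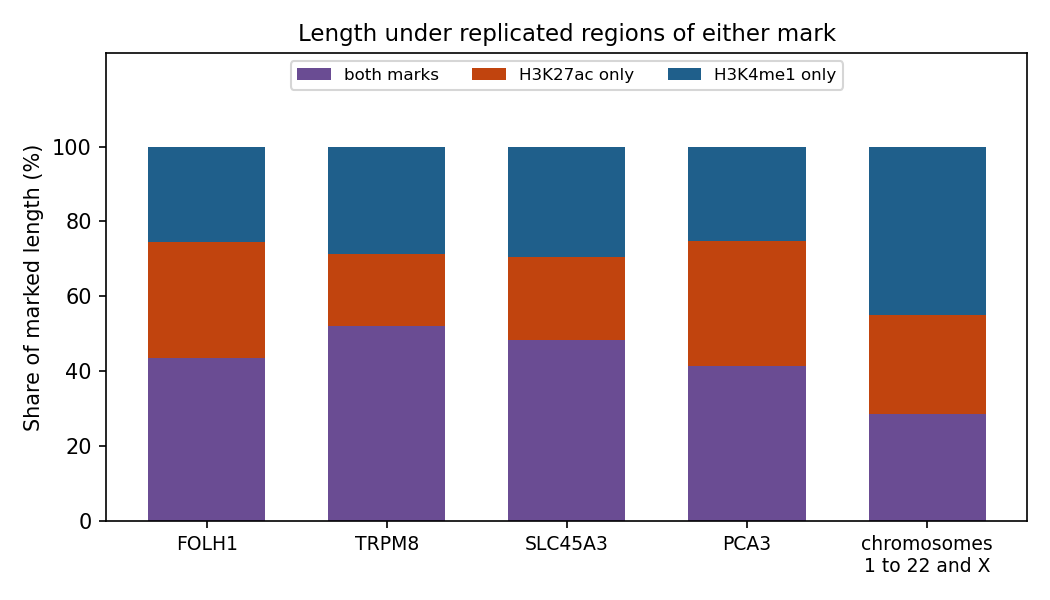
Length under replicated regions of either mark, split into bases under both marks, H3K27ac only and H3K4me1 only, as a percentage of the marked length (vertical axis) at each gene and over all chromosomes. Bases under both marks make up 43.5, 52.0, 48.2 and 41.5% at FOLH1, TRPM8, SLC45A3 and PCA3, and 28.5% over chromosomes 1 to 22 and X.

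By cluster, the lengths of the marks did not overlap between libraries in 16 of 28 cases, in both directions, with no test. Both H3K27ac libraries were longer than either H3K4me1 library in 6 clusters (18.0% of all clusters) and shorter in 10 (46.1%). Clusters separated in this way are thus common over all chromosomes. In 1 of the 6 and 4 of the 10 the other mark had no interval, so the lengths could not overlap. The 6 comprised 1 at FOLH1, 2 at TRPM8, 1 at SLC45A3 and 2 at PCA3, and the 10 comprised 3 each at FOLH1, TRPM8 and SLC45A3 and 1 at PCA3. The cluster over the FOLH1 start had on average the most H3K27ac of all 28, and the cluster 20.7 to 42.3 kb inside FOLH1 the most H3K4me1.

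**Figure D5:**
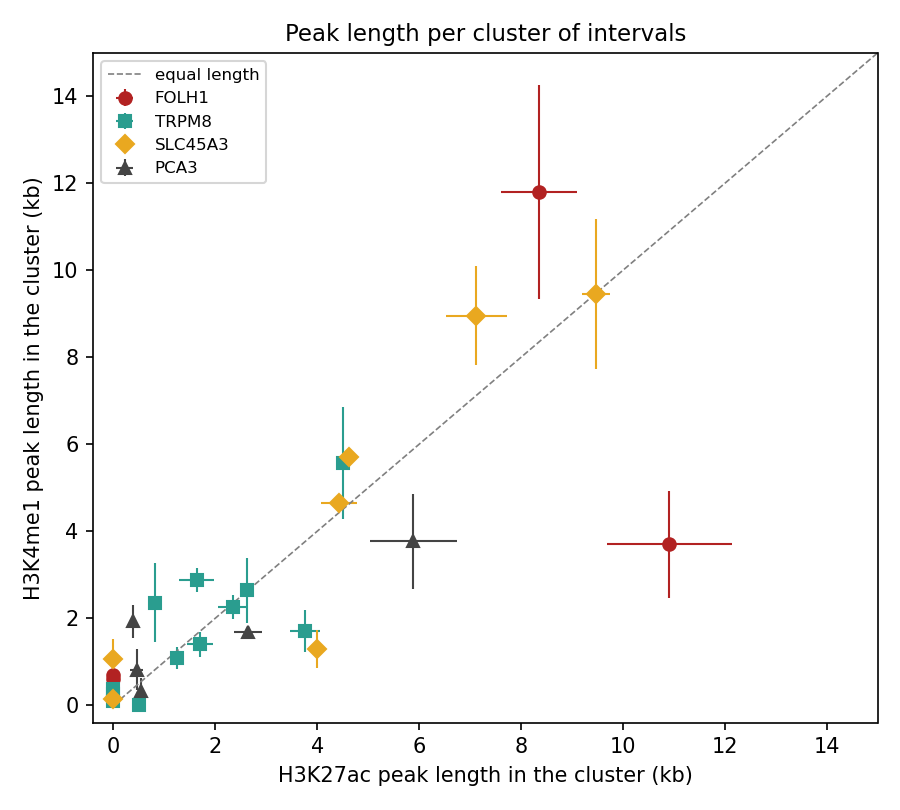
Peak length of each of the 28 clusters in kb, H3K27ac on the horizontal and H3K4me1 on the vertical axis. Points are means of 2 libraries, bars run from the lower to the higher library, and the dashed line marks equal length. The cluster over the FOLH1 start lies far below the line, with 12.1 and 9.69 kb of H3K27ac and 2.47 and 4.93 kb of H3K4me1.

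The replicates agreed near these genes about as often as elsewhere. Of H3K27ac intervals, 46 of 53 in replicate 1 and 69 of 82 in replicate 2 overlapped one of the other library (87.9 and 86.0% over all chromosomes). Of H3K4me1 intervals, 84 of 90 in replicate 1 and 60 of 79 in replicate 2 did so (88.3 and 68.7%). Intervals found in a single library were narrow, and the merged regions they formed measured 184 to 688 bp for H3K27ac and 201 to 686 bp for H3K4me1. By region, 44 of 64 merged H3K27ac regions and 60 of 85 H3K4me1 regions were held by both libraries (75.0 and 61.6% over all chromosomes).

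Wide H3K27ac regions without H3K4me1 at their middle occurred at all 4 genes. Of 20 replicated H3K27ac regions over 2 kb, 12 had replicated H3K4me1 at their middle, 2 of 4 at FOLH1, 5 of 6 at TRPM8, 5 of 8 at SLC45A3 and 0 of 2 at PCA3. Over all chromosomes 36.5% of such regions had it there, so an uncovered middle was less frequent near these genes than elsewhere. This was not tested, and the regions were not matched for the share that lies at gene starts. The 8 regions near the genes with an uncovered middle included the widest region of each gene. In the 10 replicated H3K4me1 regions over 2 kb, H3K27ac lay at the middle of 9 (65.3% over all chromosomes), and PCA3 had no H3K4me1 region of that width.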

How the data were processed

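Chromatin immunoprecipitation with sequencing was done on VCaP cells, with 2 libraries for each of H3K27ac and H3K4me1. The submitters' processing notes list MACS2 2.1.0, Bowtie 1.1.2, Trimmomatic 0.33 and bcl2fastq 2.17 and build hg19; no source at hand gives their settings. The authors deposited 1 list per library with chromosome, start, end and name of each peak, so the values are positions in bp, with no height or significance, and read depth is unknown.

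The gene spans of the 4 genes and the 50 kb distance were given in hg19. Chromosomes 1 to 22 and X were used. Lengths were clipped at the window, an overlap of 1 bp counted as shared, and regions with a peak of both libraries were called replicated. Replicated H3K27ac regions within 12500 bp formed domains. The marks were compared by an exact two-sided permutation test over libraries (Python 3.11.15, NumPy 2.4.6). Interval functions were tested on simulated data. Same-numbered libraries deviated in opposite directions (r = -0.434 over 30337 tiles of 100 kb and -0.160 as shares of each list over 22951 tiles), and nothing in the labels pairs them. The genes and the windows were chosen with earlier results of these data known, and the 3 kb joining of clusters, the tiles, the 2 kb limits and the motifs after viewing the intervals. All 4 genes are named, with the interval at or nearest the start, the widest replicated region of each mark and the domains touching the gene; other intervals named were chosen after their values were seen.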

Additional observations from a re-analysis of the deposited data

How the results depend on the processing

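The difference in covered length between marks at the 4 genes kept its direction in 28 of 36 alternatives, leaving aside the replicate block, which cannot change a mean difference, and was past no threshold in any of them, since 2 against 2 libraries cannot reach 0.05. In 3 of the 28 the value was the same as before, because no interval crossed the window edge. It turned round in 8. With 100 kb on each side the FOLH1 difference, H3K4me1 minus H3K27ac, was 6.92 kb in place of -2.46 kb, and with 10 kb the PCA3 difference was 0.185 kb in place of -1.42 kb. With equal numbers of the widest intervals, TRPM8 gave -1.43 and SLC45A3 -2.45 kb in place of 1.52 and 1.68 kb. Leaving out a library gave -6.63 to 1.72 kb at FOLH1, -3.13 to 6.17 kb at TRPM8, -2.06 to 5.43 kb at SLC45A3 and -3.69 to 0.839 kb at PCA3; the cause was not tested. Replicate pairing as a block left the values at -2.46, 1.52, 1.68 and -1.42 kb, and the crossed pairing, chosen after seeing the data, changed no call: 0 of 4 differences were called with either. Of 72 alternatives for levels and overlap shares, 55 stayed within 1 SD of the libraries. These include the levels with a library left out, which cannot move by more than 1 SD when there are 2 libraries. They also include some values identical to the original. The count is therefore not a measure of stability. A stricter peak threshold was not run, because the lists carry no significance. Unknown depth limits every statement that an interval is missing.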
